A study of Homo sapiens with 24 samples.

Results

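The nuclear genes that encode the subunits of oxidative phosphorylation were followed in 2 human osteosarcoma cell lines treated with THZ2, a covalent inhibitor of the kinase CDK7. Members were taken by gene symbol, without use of any measured value. They are the genes whose symbol begins with NDUFA, NDUFB, NDUFC, NDUFS, NDUFV, UQCR, ATP5 or COX4 to COX8, together with CYC1 and the SDH subunit genes, and the NDUFAF assembly factors were left out. The rule found 192 probe sets for 84 genes, out of 44988 probe sets for 18132 genes that the array annotation ties to a single gene. By prefix, 36 genes belong to complex I, 3 to complex II, 9 to complex III, 17 to complex IV and 19 to complex V. NDUFA4, SDHB, UQCRFS1 and the 13 subunits encoded by the mitochondrial genome were not analysed here.

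RNA was measured on Affymetrix PrimeView arrays, which read a transcript with 1 or more probe sets, as an intensity for each probe set and array. The lines, U2-OS and SJSA-1, are both established osteosarcoma lines. Exposure lasted 6 h at 25, 100 or 400 nM THZ2 in each line, with DMSO, the solvent, as the control, which makes 8 groups of 3 arrays. The labels do not say whether the 3 arrays of a group came from separate cultures, so p-values measure the spread between arrays, which may be technical. THZ2 was given to whole cultures and no second agent or genetic change separates CDK7 from other targets in this design.

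Oxidative phosphorylation couples the oxidation of NADH and succinate to ATP synthesis in the inner mitochondrial membrane. Complex I (NADH dehydrogenase) and complex II (succinate dehydrogenase) pass electrons to ubiquinone, complex III passes them on to cytochrome c, and complex IV (cytochrome c oxidase) passes them to oxygen. Complexes I, III and IV pump protons, and complex V (ATP synthase) uses the resulting gradient to make ATP. CDK7, as part of TFIIH, phosphorylates RNA polymerase II early in transcription, and messenger RNAs differ widely in how long they persist once transcription is reduced.

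In what follows a gene is read by its brightest probe set, and a change is a difference of means of log2(intensity + 16). The ± is its standard error in the limma model, with 3 arrays in each group. That model shares a gene's spread over all 8 groups, so ± is the same in both lines. The members' mean log2 level spanned 9.97 to 9.99 with DMSO in U2-OS and 10.39 to 10.54 in SJSA-1. With 100 nM the wider span was in U2-OS, 10.06 to 10.12 against 10.61 to 10.635. Where SJSA-1 arrays spread more, ± is too small there and too large in U2-OS. "Rose" and "fell" are used only for changes with an adjusted p under 0.05 in a limma model fitted to all 16175 genes that passed a filter on low intensity, and adjusted p-values cover all of these genes. Of the 84 members 83 passed the filter; COX7B2, a testis isoform of complex IV, did not. Levels are not compared between genes, because probe sets differ in how strongly they bind.

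The arrays behave as 3 sets normalized apart, one of U2-OS at 400 nM, one of the other U2-OS arrays and one of SJSA-1. Within the sets between 0.854% and 5.47% of probe sets held identical values in a pair of arrays, and between sets at most 0.00406% did; SJSA-1 values had been rounded on the log2 scale, which by itself makes identical values. In U2-OS, 400 nM THZ2 and its normalization set therefore cannot be told apart. Poly-A spike-in transcripts averaged 6.18 to 6.44 (log2) with 400 nM and 6.33 to 6.37 with 100 nM, against 5.99 to 6.00 with DMSO in U2-OS, and 7.38 to 8.90 and 7.50 to 7.63 against 6.74 to 7.39 in SJSA-1. Scaling the arrays on them lowers the median change of all genes in each comparison at 100 and 400 nM, as given with the results. The labels' extraction protocol names another tissue, so marker genes were checked. All 9 mesenchymal and bone markers were measured, 1 of them under the filter intensity in U2-OS with DMSO and none in SJSA-1, with summed intensities between 12308 and 15988. The 9 of 10 measured nervous tissue markers summed to 887 to 984 with 400 nM against 713 to 757 with DMSO in U2-OS, and to 194 to 219.6 against 159.8 to 174 in SJSA-1. The 6 epithelial markers summed to 473 to 477 against 276 to 296 in U2-OS and to 236 to 265 against 139.6 to 174 in SJSA-1, and the 6 of 8 measured blood markers to 164 to 183 against 135 to 143 in U2-OS and to 153 to 166 against 108 to 121 in SJSA-1. Under the filter intensity in SJSA-1 with 400 nM lay 3 of the nervous tissue, 1 of the epithelial and 2 of the blood markers. The nervous tissue, epithelial and blood sums were thus higher at 400 nM in both lines, and their part in the results was not tested.

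At 25 nM no member passed limma's test in either line, and at an unadjusted p under 0.05 2 members passed in U2-OS and 3 in SJSA-1, where 4.07% and 18.6% of all genes did. The median change of the 83 members was 0.018 in U2-OS and 0.023 in SJSA-1, beside -0.0023 and 0.013 for all genes. Of all genes 0.0804% passed the test at this dose in U2-OS (0.0247% rose and 0.0556% fell) and 8.25% in SJSA-1 (1.97% rose and 6.28% fell). The widest positive change among the members at 25 nM in SJSA-1 was that of NDUFA5, 0.24 ± 0.10 (adjusted p = 0.168), and in U2-OS that of SDHA, 0.23 ± 0.10 (adjusted p = 1), neither of which passed.

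At 100 nM and above most members that changed were higher with THZ2. In U2-OS at 100 nM 27 members rose and 3 fell, where 19.8% of all genes rose and 22.2% fell (42% in either direction). Fitted to the U2-OS arrays alone, 57 rose and 5 fell, against 29.8% and 26.6% of all genes. In SJSA-1 at 100 nM 38 rose and 1 fell, where 24.4% of all genes rose and 25.1% fell (49.4% in either direction). Fitted to the SJSA-1 arrays alone, 27 rose and 1 fell, against 18.7% and 26.7% of the 13467 genes tested in that fit. Fits to the arrays of a line take the spread, and the genes that pass the filter, from that line. The part of the spread in these counts was not tested. The members' median changes were 0.13 in U2-OS and 0.15 in SJSA-1, against 0.058 and 0.057 for all genes. Fewer cells and less RNA per cell cannot be told apart in such bulk samples.

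At 400 nM most members rose. In U2-OS 68 members rose and 3 fell, against 48.4% and 25% of all genes (73.3% in either direction). In SJSA-1 65 rose and 1 fell, against 41.4% and 24.9% of all genes (66.4% in either direction). The median change was 0.41 in U2-OS (all genes 0.15) and 0.26 in SJSA-1 (all genes 0.10). Fitted to the U2-OS arrays alone, 71 members rose and 3 fell, against 52.7% and 27.3% of all genes. With the SJSA-1 arrays alone 55 rose and 1 fell, against 37.2% and 27.1%. Of the 83 members 77 lie among the 3235 brightest genes tested, a comparison chosen after the values were seen. Of those genes 50.6% rose in U2-OS and 35.5% in SJSA-1 at 400 nM, with medians of 0.19 and 0.063, and the members there had medians of 0.42 and 0.26.

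These counts are relative to how the arrays were scaled. On the spike-in scale the members' median turned to -0.23 at 100 nM in U2-OS, and in SJSA-1 to -0.30 at 100 nM and -0.68 at 400 nM, and stayed at 0.092 at 400 nM in U2-OS. In SJSA-1 at 400 nM 74 members then fell and none rose, while 91.2% of all genes fell. That count rests in part on single arrays. Without 400 nM replicate 2 it was 37, with a members' median of -0.30 and 62.4% of all genes falling. Without DMSO replicate 1 it was 29, with a members' median of -0.53 and again 62.4% of all genes falling. On the scale of the ribosomal protein genes 25 members rose and 2 fell in SJSA-1 at 100 nM, against 15.7% and 26.9% of all genes. Centring on medians, spike-ins or ribosomal genes shifts all genes of an array alike, so it cannot alter the distance between the members' median and that of all genes. As deposited that distance was 0.068 and 0.25 in U2-OS and 0.089 and 0.16 in SJSA-1, and after joint quantile normalization of all arrays 0.056 and 0.20 in U2-OS and 0.048 and 0.11 in SJSA-1. Changes below are on the deposited scale, and on the spike-in scale 26 of the 53 changes named by rule turned sign and 19 more did not pass.

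**Figure D1:**
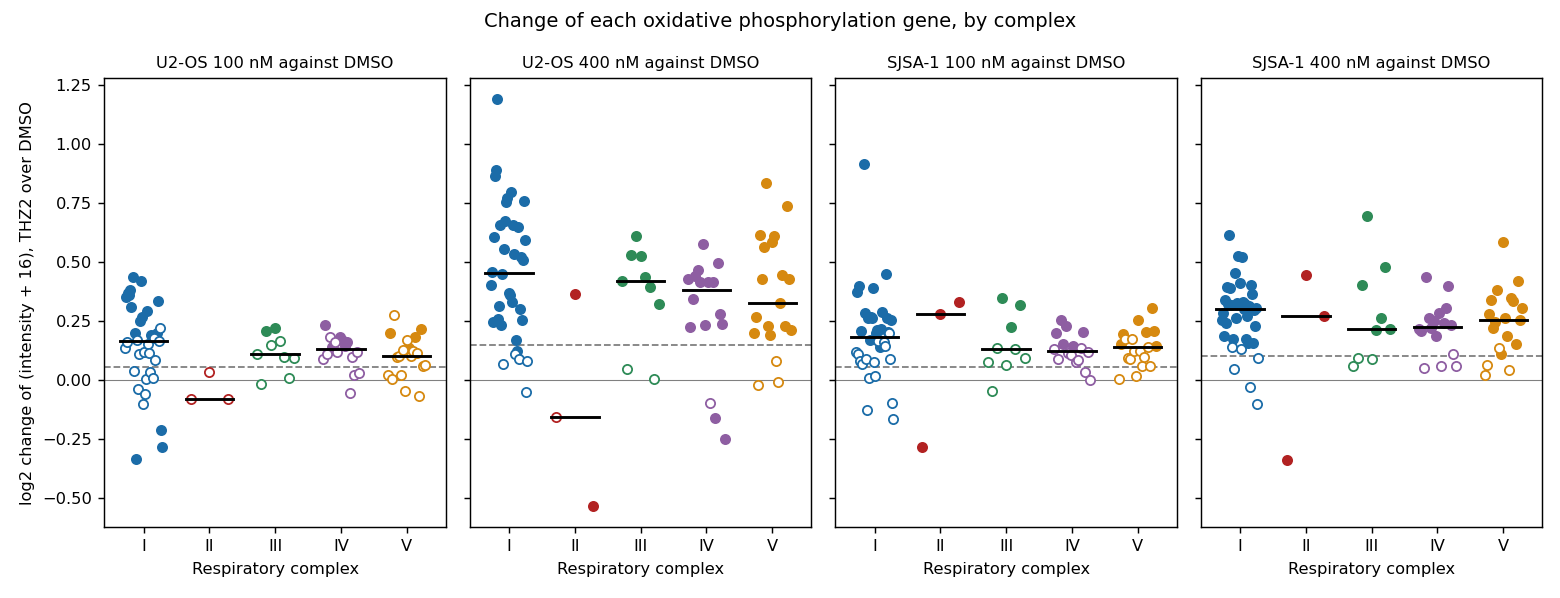
Each point is a member, placed by complex and by its log2 change of (intensity + 16) with THZ2 over DMSO; filled points passed the test and open ones did not. Black bars are the medians of each complex and the dashed line is the median of all genes tested, 0.058, 0.15, 0.057 and 0.10 from left to right. On the deposited scale most points of complexes I, III, IV and V lie above that line at 400 nM, whereas on the spike-in scale the members' median is below 0 in all panels but U2-OS at 400 nM.

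**Figure D2:**
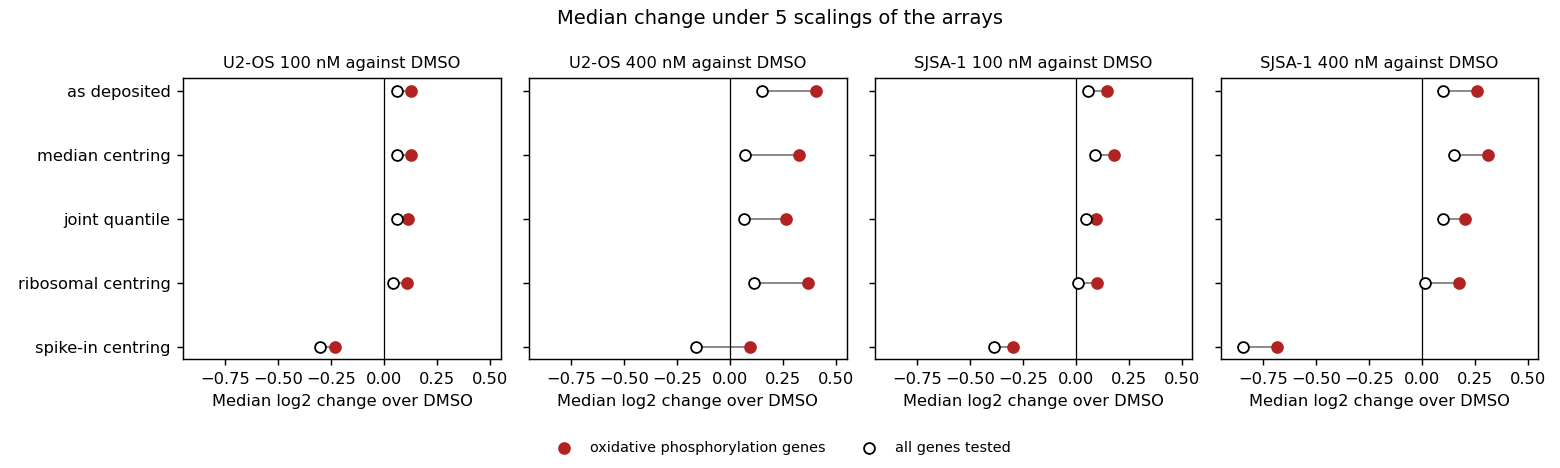
Median log2 change with THZ2 over DMSO of the 83 members (filled) and of the 16175 genes tested (open) under 5 scalings of the arrays. Centring on medians, ribosomal genes or spike-ins moves both points alike, so only joint quantile normalization could alter the gap between them. Under spike-in scaling both points lie below 0 except the members in U2-OS at 400 nM, at 0.092.

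The promoters of 4 members are shown, as GRCh38.p14 sequence from RefSeq, from 250 bases before to 50 bases after the first listed transcription start. NDUFA5 and ATP5ME had the largest rises in SJSA-1 at 400 nM after UQCRB, which is not shown, and SDHA and NDUFV2 had the lowest changes, of which that of NDUFV2 did not pass. Capitals mark matches on either strand to the core of the NRF1 site (GCGCA, any base, GCGC), to the ETS core CCGGAAG that GABP binds, to the YY1 core AAGATGG and to the SP1 box GGGCGG. A match is a description of the letters and not a bound site.
NDUFA5 promoter, chr7:123601602-123601901, minus strand: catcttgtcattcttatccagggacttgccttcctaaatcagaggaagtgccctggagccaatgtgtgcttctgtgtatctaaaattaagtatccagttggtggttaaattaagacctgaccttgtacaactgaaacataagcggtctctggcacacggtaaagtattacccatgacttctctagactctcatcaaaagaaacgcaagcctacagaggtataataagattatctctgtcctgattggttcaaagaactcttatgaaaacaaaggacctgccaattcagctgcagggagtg
ATP5ME promoter, chr4:674227-674526, minus strand: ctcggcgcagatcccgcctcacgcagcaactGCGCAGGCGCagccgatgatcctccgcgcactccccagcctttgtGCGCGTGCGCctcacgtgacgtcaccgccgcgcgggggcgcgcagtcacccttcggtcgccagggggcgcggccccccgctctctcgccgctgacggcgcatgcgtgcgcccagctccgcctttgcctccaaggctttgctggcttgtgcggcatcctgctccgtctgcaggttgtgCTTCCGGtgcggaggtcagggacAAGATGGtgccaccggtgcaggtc
SDHA promoter, chr5:218070-218369, plus strand: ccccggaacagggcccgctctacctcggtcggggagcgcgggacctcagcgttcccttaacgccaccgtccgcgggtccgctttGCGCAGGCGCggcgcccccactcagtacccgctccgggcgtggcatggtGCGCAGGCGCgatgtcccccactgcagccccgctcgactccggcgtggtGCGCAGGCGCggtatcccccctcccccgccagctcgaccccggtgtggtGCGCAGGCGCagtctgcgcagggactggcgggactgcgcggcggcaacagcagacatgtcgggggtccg
NDUFV2 promoter, chr18:9102449-9102748, plus strand: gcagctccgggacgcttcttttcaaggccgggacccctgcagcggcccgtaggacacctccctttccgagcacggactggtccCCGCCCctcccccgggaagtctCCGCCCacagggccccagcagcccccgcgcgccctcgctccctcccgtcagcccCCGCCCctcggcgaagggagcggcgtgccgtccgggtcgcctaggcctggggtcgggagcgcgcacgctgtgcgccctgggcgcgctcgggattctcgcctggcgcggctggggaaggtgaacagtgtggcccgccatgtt
The SDHA window holds 4 NRF1 cores, at -166, -117, -68 and -19 from the start (first base of each), and the ATP5ME window holds 2 NRF1 cores, 1 ETS core and 1 YY1 core. NDUFV2 holds 3 SP1 boxes, and the NDUFA5 window, the first of 3 listed starts, holds none of the 4 motifs. A RefSeq promoter was matched for 68 of the 84 members. The NRF1 core occurs in 16 of them (23.5%), against 8.92% of the 14425 promoters of genes on the array and 6.28% of all 27305 promoters listed. The ETS core occurs in 27.9% against 14.6% and 10.7%, and the YY1 core in 22.1% against 6.47% and 6.06%. The SP1 box occurs in 58.8%, against 59.7% of array genes and 44.6% of all promoters.

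Complex I is the largest group. In U2-OS 15 of its 36 genes rose and 3 fell at 100 nM, and 31 rose with none falling at 400 nM. In SJSA-1 20 rose at 100 nM and 30 at 400 nM, and none fell. The shares that rose were 41.7% and 86.1% in U2-OS, beside 19.8% and 48.4% of all genes. In SJSA-1 they were 55.6% and 83.3%, beside 24.4% and 41.4%. The median change of complex I was 0.17 and 0.45 in U2-OS and 0.18 and 0.30 in SJSA-1 at the 2 doses. Among the core subunits that carry the redox centres, NDUFS1, which holds iron-sulfur clusters, had a change of 0.65 ± 0.074 (adjusted p = 1.07e-08) in U2-OS and 0.32 ± 0.074 (adjusted p = 0.00065) in SJSA-1 at 400 nM. NDUFV1, which binds NADH and the flavin, had a change of 0.60 ± 0.092 (adjusted p = 2.01e-06) and 0.31 ± 0.092 (adjusted p = 0.00532).

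NDUFA3, an accessory subunit of the membrane arm, had the largest rise of any member. It read 1204, 1214 and 1297 in U2-OS with 400 nM THZ2, against 539, 513 and 546 with DMSO. The 3 treated arrays are all above the DMSO arrays, a change of 1.19 ± 0.083 (adjusted p = 5.76e-13). In SJSA-1 the arrays with 400 nM read 2647, 3214 and 2504, against 1965, 2272 and 2419 with DMSO, also without overlap, a change of 0.32 ± 0.083 (adjusted p = 0.00144). Of its 4 probe sets in U2-OS at 400 nM 3 rose, and the fourth had a change of 0.15 and did not pass. NDUFA2, an accessory subunit of the NADH-oxidising arm, read 635, 673 and 722 with 400 nM in U2-OS against 366, 352 and 355 with DMSO, a change of 0.89 ± 0.076 (adjusted p = 4.59e-11). In SJSA-1 NDUFA2 had a change of 0.39 ± 0.076 (adjusted p = 7.80e-05) at the same dose. NDUFB11, an accessory subunit of the membrane arm, read 477, 562 and 580.2 with 100 nM in U2-OS against 392, 405 and 398 with DMSO, and its groups do not overlap at that dose, a change of 0.42 ± 0.089 (adjusted p = 0.000406). NDUFB2, of the same arm, read 2034, 2257 and 1820.3 with 400 nM in SJSA-1 against 1193, 1499 and 1552 with DMSO and had a change of 0.52 ± 0.084 (adjusted p = 6.05e-06).

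NDUFA5, an accessory subunit of the peripheral arm, was the member with the largest rise at 100 nM in both lines and was nearer to DMSO at 400 nM. In SJSA-1 it read 375, 317 and 349.7 with DMSO, 437, 385 and 419 with 25 nM, 635, 617 and 760.1 with 100 nM and 553, 446 and 639 with 400 nM. Every THZ2 array lies above every DMSO array. The change was 0.92 ± 0.10 (adjusted p = 1.31e-08) at 100 nM and 0.62 ± 0.10 (adjusted p = 8.72e-06) at 400 nM. In U2-OS it read 424, 458 and 419 with DMSO, 448, 465 and 449 with 25 nM, 582, 616 and 580.5 with 100 nM and 476, 515 and 579 with 400 nM. The 100 nM arrays are the highest, and the highest array at 400 nM lies just below them. The changes were 0.44 ± 0.10 (adjusted p = 0.000934) at 100 nM and 0.26 ± 0.10 (adjusted p = 0.0235) at 400 nM. The step between the 2 doses was not tested.

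On the deposited scale 3 complex I genes fell, each in U2-OS at 100 nM. NDUFA8, an accessory subunit on the intermembrane side, read 621, 739 and 722 with 100 nM THZ2 against 866, 882 and 881 with DMSO, a change of -0.33 ± 0.081 (adjusted p = 0.00151). At 400 nM the same gene read 1019.9, 1097 and 990.0 and rose, 0.24 ± 0.081 (adjusted p = 0.0108), so it lay below its DMSO arrays at one dose and above them at the next. The second NDUFA8 probe set had a change of 0.051 at 100 nM and did not pass. NDUFV2, an iron-sulfur subunit of the NADH-oxidising tip, read 1273, 1319 and 1350.5 with 100 nM against 1469, 1555 and 1540.4 with DMSO, a change of -0.21 ± 0.053 (adjusted p = 0.00224). NDUFV3, an accessory subunit at the same tip, read 144, 168 and 165 against 195, 192 and 203, a change of -0.28 ± 0.097 (adjusted p = 0.0206) that did not pass without U2-OS DMSO replicate 3 or without 100 nM replicate 1, where it was -0.26 and -0.22, nor after joint quantile normalization, where it was -0.18. In SJSA-1 at 100 nM the changes were -0.13 (adjusted p = 0.198) for NDUFA8, -0.096 (adjusted p = 0.132) for NDUFV2 and -0.16 (adjusted p = 0.16) for NDUFV3, and none passed.

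**Figure D3:**
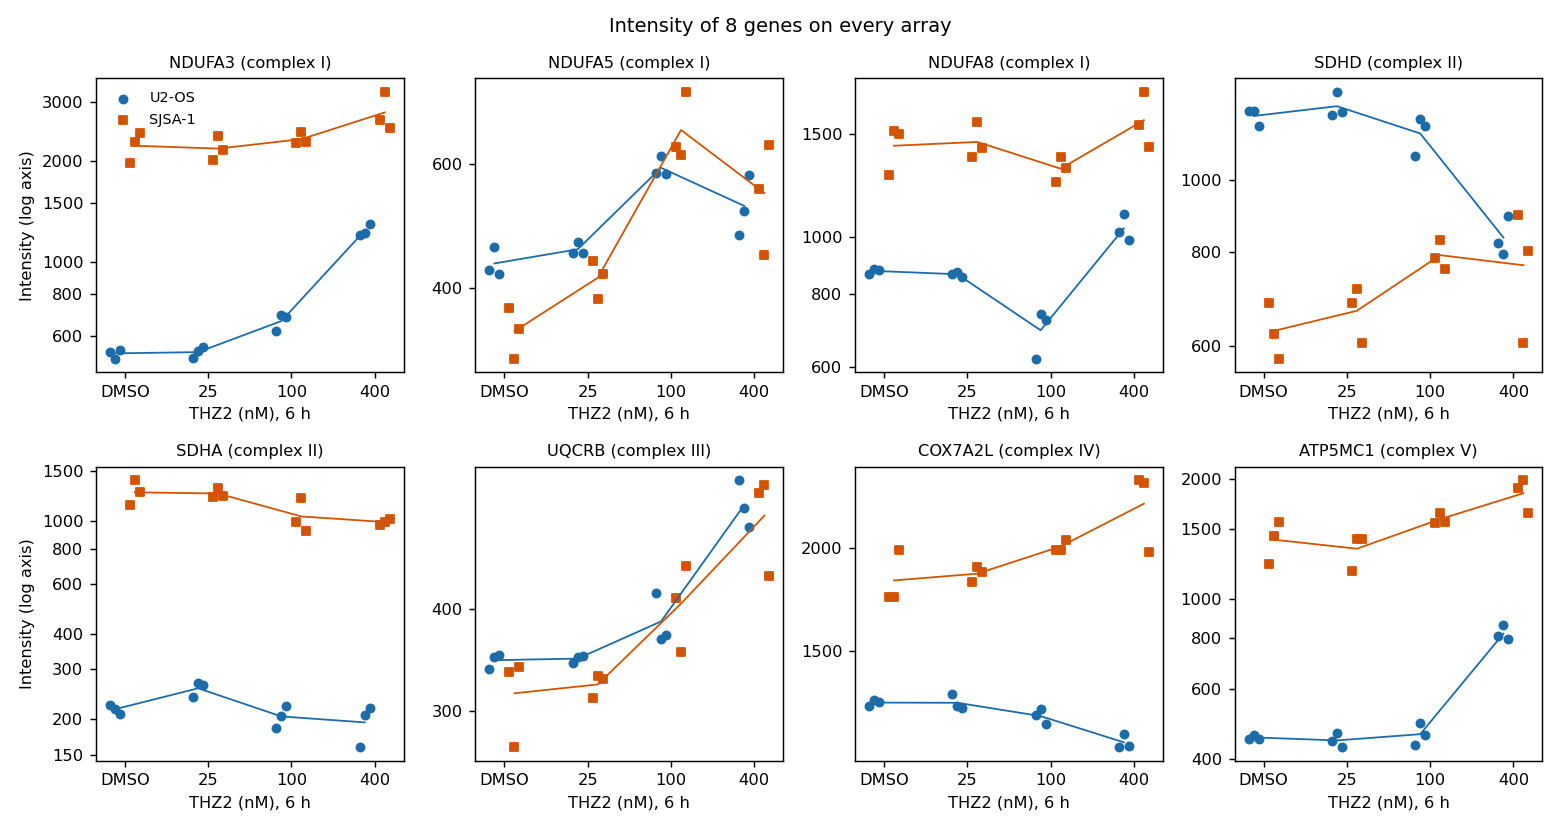
Intensity of 8 members on each of the 24 arrays, on a log axis, by THZ2 dose; points are arrays, lines join group means, circles are U2-OS and squares SJSA-1. NDUFA5 peaks at 100 nM, NDUFA8 in U2-OS dips at 100 nM, and SDHD with 400 nM lies below DMSO in U2-OS and, in 2 of 3 arrays, above it in SJSA-1. Levels of the lines were normalized apart, and on the spike-in scale the rises in SJSA-1 of NDUFA5 at 400 nM and of SDHD and UQCRB turn negative.

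The genes of complex II went both ways. None of its 3 measured genes passed at 100 nM in U2-OS, 1 rose and 1 fell at 400 nM there, and 2 rose and 1 fell at each of the 2 doses in SJSA-1. Over all genes 19.8% rose and 22.2% fell at 100 nM in U2-OS, and 24.4% and 25.1% in SJSA-1. At 400 nM these were 48.4% and 25% in U2-OS and 41.4% and 24.9% in SJSA-1. SDHA, the flavoprotein that oxidises succinate and is shared with the citrate cycle, read 969, 989 and 1017 with 400 nM in SJSA-1 against 1136, 1389 and 1261 with DMSO. All 3 treated arrays lie below the DMSO arrays, a change of -0.34 ± 0.10 (adjusted p = 0.00505), and the 2 of its 3 probe sets that passed the filter both fell. At 100 nM SDHA read 989, 1201 and 923 and had a change of -0.28 ± 0.10 (adjusted p = 0.0223), with overlap between the groups. That fall did not pass without SJSA-1 DMSO replicate 2, 100 nM replicate 1 or 100 nM replicate 3, and the change over all 6 omissions lay between -0.39 and -0.20. With the mean of its probe sets it was -0.13 (adjusted p = 0.132). In U2-OS SDHA read 159, 208 and 219 against 225, 217 and 209.6 and the groups overlap, -0.15 (adjusted p = 0.171). SDHC, a membrane anchor that helps bind ubiquinone, rose at 400 nM by 0.37 ± 0.076 (adjusted p = 0.000113) in U2-OS and by 0.45 ± 0.076 (adjusted p = 1.47e-05) in SJSA-1. At 100 nM SJSA-1 showed a rise of SDHC by 0.28 ± 0.076 (adjusted p = 0.00329).

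SDHD, the other membrane anchor, went opposite ways in the 2 lines at 400 nM. In SJSA-1 it read 787, 832 and 760.1 with 100 nM and 898, 605 and 803 with 400 nM, against 685, 622 and 576 with DMSO. The 100 nM arrays are all above the DMSO arrays, and 1 of the 3 arrays with 400 nM lies among them. The changes were 0.33 ± 0.097 (adjusted p = 0.00603) at 100 nM and 0.27 ± 0.097 (adjusted p = 0.0171) at 400 nM. In U2-OS SDHD read 822, 795 and 894 with 400 nM against 1237, 1237 and 1180.0 with DMSO, without overlap, a change of -0.53 ± 0.097 (adjusted p = 2.04e-05). All 5 SDHD probe sets were higher in SJSA-1 and all 5 lower in U2-OS at 400 nM, but 3 of 5 passed in SJSA-1 and 1 of 5 in U2-OS, where the changes lay between -0.53 and -0.16. Without SJSA-1 DMSO replicate 3, 400 nM replicate 1 or 400 nM replicate 3 the rise at 400 nM did not pass, and over all 6 omissions it lay between 0.15 and 0.43. It also did not pass with ribosomal centring (0.18, adjusted p = 0.131) or with the SJSA-1 arrays fitted alone (0.27, adjusted p = 0.063). On the spike-in scale SDHD in SJSA-1 turned to -0.11 at 100 nM and -0.67 at 400 nM.

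In complex III, 2 of 9 genes rose in U2-OS and 3 in SJSA-1 at 100 nM, and 7 and 6 at 400 nM, with none falling. At 100 nM these shares, 22.2% and 33.3%, stand beside 19.8% and 24.4% of all genes, and at 400 nM 77.8% and 66.7% beside 48.4% and 41.4%. UQCRB, a subunit near the ubiquinone site, read 556, 568 and 439.6 with 400 nM in SJSA-1 against 335, 271 and 340.1 with DMSO. It read 576, 532 and 504 with 400 nM in U2-OS against 338, 349.6 and 352 with DMSO. Neither pair of groups overlaps, and the changes were 0.70 ± 0.098 (adjusted p = 8.85e-07) in SJSA-1 and 0.61 ± 0.098 (adjusted p = 3.67e-06) in U2-OS. CYC1, the cytochrome c1 that hands electrons to cytochrome c, had a change of 0.42 ± 0.090 (adjusted p = 0.000141) in U2-OS and by 0.060 ± 0.090 (adjusted p = 0.56) in SJSA-1, where it did not pass. UQCRC1, a core protein facing the matrix, had a change of 0.53 ± 0.087 (adjusted p = 5.25e-06) in U2-OS at 400 nM and 0.089 ± 0.087 (adjusted p = 0.364) in SJSA-1. Its rise at 100 nM in U2-OS, 0.22 ± 0.087 (adjusted p = 0.0433), did not pass in 5 of the 6 fits without 1 array, in which it lay between 0.19 and 0.23, nor with ribosomal centring, the mean of probe sets or no intensity trend (0.20 to 0.22).

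The 2 probe sets of UQCR11, a small subunit of complex III, disagreed. The brighter one rose at 100 nM in U2-OS, 0.21 ± 0.072 (adjusted p = 0.0214), where the other fell by 0.82, and the rise did not pass without DMSO replicate 1, 100 nM replicate 2 or 100 nM replicate 3 (lowest value 0.19). In SJSA-1 at 100 nM the brighter one had a change of 0.14 (adjusted p = 0.119) and the other fell by 0.89. At 400 nM the brighter one had a change of 0.53 ± 0.072 (adjusted p = 2.39e-07) in U2-OS and 0.40 ± 0.072 (adjusted p = 2.90e-05) in SJSA-1. UQCRH, the hinge protein, had a change of 0.40 ± 0.057 (adjusted p = 6.60e-07) in U2-OS and 0.26 ± 0.057 (adjusted p = 0.000312) in SJSA-1 at 400 nM. UQCRHL is a near-identical retrocopy of UQCRH, so its probe set may read both genes. It had a change of 0.0072 ± 0.099 (adjusted p = 0.95) in U2-OS and by 0.48 ± 0.099 (adjusted p = 0.000167) in SJSA-1, and its rise at 100 nM in SJSA-1, 0.32 ± 0.099 (adjusted p = 0.00963), did not pass without 100 nM replicate 3 (0.26).

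In complex IV, 6 of 16 genes (37.5%) rose at 100 nM in each line, and 13 rose and 2 fell in U2-OS and 12 rose in SJSA-1 at 400 nM. Of all genes 19.8% rose at 100 nM in U2-OS and 24.4% in SJSA-1. At 400 nM the shares that rose, 81.2% and 75%, stand beside 48.4% and 41.4% of all genes. The broadly expressed subunits are given first, at 400 nM. COX4I1, which helps regulate the enzyme, had a change of 0.43 ± 0.056 (adjusted p = 1.33e-07) in U2-OS and 0.22 ± 0.056 (adjusted p = 0.00159) in SJSA-1. COX6C, a small membrane subunit, had a change of 0.42 ± 0.053 (adjusted p = 7.08e-08) and 0.29 ± 0.053 (adjusted p = 4.73e-05). COX5A had a change of 0.34 ± 0.056 (adjusted p = 4.07e-06) in U2-OS and by 0.053 ± 0.056 (adjusted p = 0.401), without passing, in SJSA-1. COX5B, a zinc-binding subunit, read 3397, 3616 and 2876 with 400 nM in SJSA-1 against 2106, 2402 and 2798 with DMSO, a change of 0.44 ± 0.080 (adjusted p = 3.97e-05). Its rise at 100 nM there, 0.26 ± 0.080 (adjusted p = 0.01), did not pass without DMSO replicate 1 (0.16). COX7B read 3976, 4217 and 4169.7 with 400 nM in U2-OS against 2845, 2942 and 2954 with DMSO and had a change of 0.50 ± 0.055 (adjusted p = 7.49e-09), and in SJSA-1 by 0.40 ± 0.055 (adjusted p = 6.95e-07). COX6B1, which links the monomers of the dimeric enzyme, had a change of 0.58 ± 0.063 (adjusted p = 4.42e-09) in U2-OS and 0.25 ± 0.063 (adjusted p = 0.00114) in SJSA-1.

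COX7A2L, which helps join complexes III and IV into supercomplexes, differed between the lines. It read 2419, 2402 and 1978 with 400 nM in SJSA-1 against 1746, 1746 and 1992 with DMSO, with 1 treated array inside the DMSO range, and rose by 0.30 ± 0.065 (adjusted p = 0.000243). In U2-OS it read 1145, 1189 and 1151 with 400 nM against 1285, 1308 and 1302 with DMSO, and the treated arrays are all lower, -0.16 ± 0.065 (adjusted p = 0.0298). That small fall did not pass in 5 of the 6 fits that left out 1 array, in which it lay between -0.17 and -0.15.

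The tissue isoforms of complex IV were dim. ATP5MGL of complex V and the complex IV genes COX4I2, COX6B2, COX7A1, COX7B2 and COX8C had at least 1 group mean under the filter intensity of 12.7, and every other member but COX6A2 had a lowest group mean of at least 159. COX8C, a testis isoform, read 9.16, 9.16 and 9.1 with 400 nM in U2-OS against 13.7, 13.9 and 13.8 with DMSO. All 3 treated arrays were under the filter intensity, so the ratio has only a bound, at least 1.09-fold lower, with a fitted change of -0.25 (adjusted p = 1.03e-07). COX4I2, an isoform known from lung, read 15.2, 15.9 and 12.3 with 400 nM in SJSA-1 against 11.8, 8.88 and 10.4 with DMSO, at least 1.14-fold higher, with a fitted change of 0.21 (adjusted p = 0.011). In U2-OS, at 100 nM, COX4I2 had a change of 0.23 ± 0.070 (adjusted p = 0.00868), which did not pass without 100 nM replicate 1 (0.18). COX6B2 had a change of 0.18 ± 0.057 (adjusted p = 0.0112) there, which did not pass without DMSO replicate 2 or without 100 nM replicate 1 (0.15). In SJSA-1 all group means of COX6B2 were under the filter intensity, so no ratio is given. It is still counted among the rises in SJSA-1 at 400 nM, with means of 12.5 against 8.99 with DMSO. COX7A1, an isoform of heart and muscle, had a change of 0.15 ± 0.058 (adjusted p = 0.0442) at 100 nM in U2-OS, and its SJSA-1 arrays read between 6.02 and 9.92, all under the filter intensity. COX6A2, a further heart and muscle isoform, read 33.4, 36.5 and 35.3 with 100 nM in SJSA-1 against 26.5, 29.9 and 26.2 with DMSO and had a change of 0.23 ± 0.075 (adjusted p = 0.0125), which did not pass with ribosomal centring (0.18, adjusted p = 0.052).

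In complex V, 4 of 19 genes rose in U2-OS and 7 in SJSA-1 at 100 nM, and 16 and 15 at 400 nM, and none fell. At 100 nM these shares, 21.1% and 36.8%, stand beside 19.8% and 24.4% of all genes, and at 400 nM 84.2% and 78.9% beside 48.4% and 41.4%. ATP5MC1, ATP5MC2 and ATP5MC3 encode the same membrane rotor subunit, subunit c, with different targeting sequences, and each rose in U2-OS at 400 nM. ATP5MC1 read 809.9, 862 and 795 with 400 nM in U2-OS against 450.4, 459 and 450.4 with DMSO, a change of 0.84 ± 0.085 (adjusted p = 1.37e-09). ATP5MC2 read 1914, 2017 and 2222 against 1732, 1751 and 1749, a change of 0.23 ± 0.067 (adjusted p = 0.00337). ATP5MC3 read 4419.8, 4642 and 4516 against 3933, 4022 and 3933, a change of 0.19 ± 0.047 (adjusted p = 0.00079). The treated arrays lie above the DMSO arrays for each of the 3 genes. In SJSA-1 the changes were 0.38 (adjusted p = 0.000382), 0.14 (adjusted p = 0.0688) and 0.11 (adjusted p = 0.0385) in the same order.

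Other parts of the enzyme were read as follows. ATP5F1B, the catalytic beta subunit, rose in U2-OS by 0.20 ± 0.044 (adjusted p = 0.000571) at 100 nM and 0.27 ± 0.044 (adjusted p = 5.01e-06) at 400 nM, and had changes in SJSA-1 of 0.15 (adjusted p = 0.00546) and 0.066 (adjusted p = 0.182). ATP5F1A, the alpha subunit, had a change of 0.20 ± 0.048 (adjusted p = 0.000652) in U2-OS on its brightest probe set, but 2 of its 4 probe sets fell there, the lowest to -1.36. ATP5PD, of the peripheral stalk, read 1817, 1793 and 2010.4 with 400 nM in U2-OS against 1105, 1132 and 1112 with DMSO, a change of 0.74 ± 0.069 (adjusted p = 2.49e-10). In SJSA-1 ATP5PD had a change of 0.31 ± 0.069 (adjusted p = 0.000527) at 100 nM and 0.42 ± 0.069 (adjusted p = 7.73e-06) at 400 nM, and its rise at 100 nM in U2-OS, 0.22 ± 0.069 (adjusted p = 0.012), did not pass without 100 nM replicate 3 (0.19). ATP5ME, at the interface of ATP synthase dimers, read 2778, 2916 and 2385 with 400 nM in SJSA-1 against 1746, 1563 and 2077 with DMSO, without overlap, a change of 0.59 ± 0.080 (adjusted p = 4.77e-07). The rise of ATP5ME at 100 nM in SJSA-1, 0.25 ± 0.080 (adjusted p = 0.00996), did not pass without DMSO replicate 2 (0.16). ATP5IF1, the inhibitor that binds the enzyme when the proton gradient falls, had a change of 0.57 ± 0.051 (adjusted p = 1.13e-10) in U2-OS and 0.25 ± 0.051 (adjusted p = 0.000179) in SJSA-1.

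The lines were compared by testing the difference of their effects, SJSA-1 minus U2-OS. At 25 nM no member differed in limma's test, and 0 at an unadjusted p under 0.05, with 1.09% of all genes passing after adjustment and 9.02% before it. At 100 nM 3 members differed, each with the larger change in SJSA-1, where 16.9% of all genes passed (7.15% more positive in SJSA-1 and 9.74% in U2-OS). They were NDUFA5, by 0.48 ± 0.14 (adjusted p = 0.019), SDHD, by 0.41 ± 0.14 (adjusted p = 0.0383), and NDUFS4, by 0.37 ± 0.11 (adjusted p = 0.022). NDUFS4, an accessory subunit of the NADH-oxidising arm, read 1024, 1046 and 1152 with 100 nM in SJSA-1 against 749.6, 739 and 855 with DMSO, without overlap. In U2-OS it read 1392, 1494 and 1442 against 1382, 1358 and 1334, a change of 0.086 (adjusted p = 0.378). The 3 differences are near the threshold: none passed without SJSA-1 DMSO replicate 2, and 6 members passed without SJSA-1 DMSO replicate 1. Over the 12 fits that each left out 1 array the difference of NDUFA5 did not pass in 3, that of NDUFS4 in 4 and that of SDHD in 9. With the mean of its probe sets the NDUFS4 difference was 0.18 (adjusted p = 0.136), and with ribosomal centring that of SDHD was 0.38 (adjusted p = 0.0648).

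At 400 nM 31 members differed, 6 with the more positive change in SJSA-1 and 25 with the more positive change in U2-OS, where 45.9% of all genes passed (14.5% and 31.4%). The members' median difference was -0.13, and that of all genes -0.094. NDUFA3 (-0.87 ± 0.12), NDUFA13 (-0.62 ± 0.12) and NDUFS8 (-0.53 ± 0.12), all of complex I, had the more positive change in U2-OS. NDUFA13 read 3169, 3616 and 2740.1 with 400 nM in SJSA-1 against 2320.2, 2721 and 2998 with DMSO, and 1053, 1107 and 1189 against 605, 603 and 607 in U2-OS. NDUFS8, which holds iron-sulfur clusters, read 2740.1, 3259 and 2452 against 2019.8, 2469 and 2721 in SJSA-1 and 1347, 1415 and 1442 against 865, 776 and 825 in U2-OS. For both genes the groups overlap in SJSA-1 and are apart in U2-OS. The 2 probe sets of NDUFS8 disagree in size, with changes of 0.76 and 0.085 in U2-OS of which the first passed, and with their mean its line difference was -0.22 and did not pass (adjusted p = 0.0927). SDHD (0.80 ± 0.14), UQCRHL (0.47 ± 0.14) and COX7A2L (0.46 ± 0.092) had the more positive change in SJSA-1, but on the spike-in scale UQCRHL and COX7A2L turned to -0.16 and -0.17. The 400 nM arrays of U2-OS form a normalization set of their own, and on arrays centred on their medians 12 members had the more positive change in SJSA-1 and 8 in U2-OS (25% and 20.2% of all genes). After joint quantile normalization these were 11 and 17 (24.5% and 21.2%), and on the spike-in scale 0 and 23 (0.142% and 33.6%).

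At 100 nM 16 members rose in both lines, 59.3% of the 27 that rose in U2-OS and 42.1% of the 38 that rose in SJSA-1. Over all genes the shares were 52% and 42.2%. At 400 nM 59 members rose in both, 86.8% of the 68 and 90.8% of the 65, against 59.1% and 69.1% over all genes. SDHD and COX7A2L were the members called in opposite directions at 400 nM. Across the 83 members the changes of the 2 lines had a Pearson r of 0.556 at 100 nM and 0.504 at 400 nM (Spearman 0.413 and 0.558), below the r of 0.769 and 0.742 across all 16175 genes. The points share probe sets and the array type, and genes are not independent replicates.

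**Figure D4:**
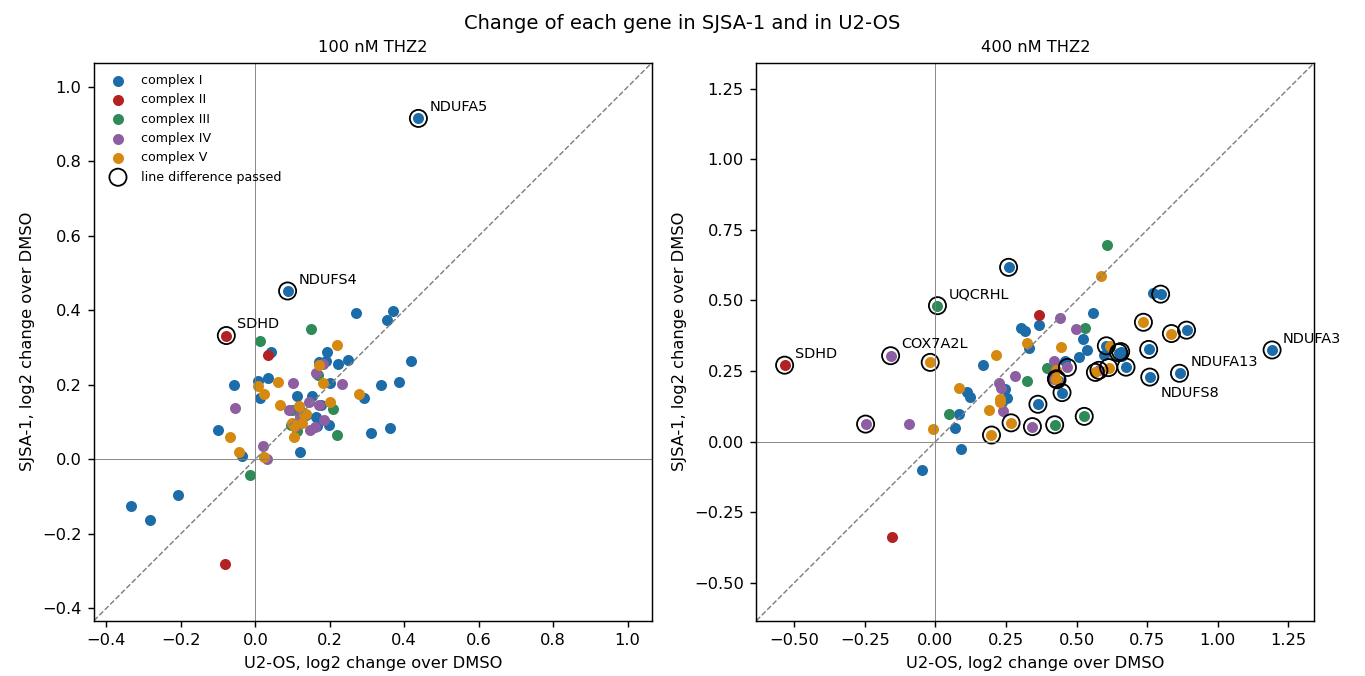
Log2 change of each of the 83 members with THZ2 over DMSO in SJSA-1 (vertical axis) and U2-OS (horizontal axis) at 100 and 400 nM, coloured by complex; ringed points passed the test of the line difference and the dashed line marks equal change. At 400 nM most ringed points lie below the line on the deposited scale, 25 of 31, whereas after median centring of the arrays 8 of 20 do.

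Other lists of genes that serve mitochondria or ribosomes were read beside the subunits. Of the 74 mitochondrial ribosomal protein genes 2 rose and 34 fell at 100 nM in U2-OS, and 4 rose and 37 fell in SJSA-1. Over all genes 19.8% rose and 22.2% fell at that dose in U2-OS, and 24.4% and 25.1% in SJSA-1. At 400 nM 14 of the mitochondrial ribosomal genes rose and 42 fell in U2-OS and 12 rose and 38 fell in SJSA-1, with medians of -0.40 and -0.21. Over all genes 48.4% rose and 25% fell at 400 nM in U2-OS, and 41.4% and 24.9% in SJSA-1. Of the 67 cytosolic ribosomal protein genes at 400 nM 28 rose and 7 fell in U2-OS and 25 rose and none fell in SJSA-1, with medians of 0.055 and 0.083. The shares that rose, 41.8% and 37.3%, lie under those of all genes. Of 11 citrate cycle genes 7 rose and 2 fell in U2-OS and 4 rose in SJSA-1 at 400 nM. The shares that rose were 63.6% in U2-OS, over that of all genes, and 36.4% in SJSA-1, under it. CS, the citrate synthase, had a change of 0.78 ± 0.073 in U2-OS and 0.043 ± 0.073 in SJSA-1. The comparison of the lists themselves was not tested.

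The assembly factors, which build the complexes but are not part of them, went both ways. Of 51 tested 21 rose and 17 fell in U2-OS and 25 rose and 13 fell in SJSA-1 at 400 nM, with medians of 0.12 and 0.18. The shares that rose, 41.2% and 49%, stand beside 48.4% and 41.4% of all genes, of which 25% and 24.9% fell. SDHAF1, which helps insert iron-sulfur clusters into complex II, had a change of -2.26 ± 0.13 in U2-OS and -2.79 ± 0.13 in SJSA-1. TMEM186, a complex I assembly factor, had a change of -2.30 ± 0.084 and -2.28 ± 0.084, and TMEM70, needed for ATP synthase assembly, by -2.04 ± 0.089 and -1.56 ± 0.089. TACO1, which promotes translation of the mitochondrial COX1 message, had a change of -1.43 ± 0.13 and -1.36 ± 0.13. All of these fell in the limma test. In the other direction ATPAF1, a chaperone of the ATP synthase head, had a change of 0.79 ± 0.075 and 0.60 ± 0.075, and COX17, a copper chaperone of complex IV, by 0.70 ± 0.074 and 0.45 ± 0.074.

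Of 13 regulators of mitochondrial gene expression 2 rose and 9 fell in U2-OS and 1 rose and 8 fell in SJSA-1 at 400 nM. The shares that rose, 15.4% and 7.69%, stand beside 48.4% and 41.4% of all genes, of which 25% and 24.9% fell. NRF1, a transcription factor known to bind promoters of many of the subunit genes, had a change of -0.57 ± 0.11 and -1.01 ± 0.11 in U2-OS at 100 and 400 nM, and by -1.28 ± 0.11 and -1.89 ± 0.11 in SJSA-1. PPRC1, a coactivator of NRF1, had a change of -2.40 ± 0.11 in U2-OS and -2.71 ± 0.11 in SJSA-1 at 400 nM, and SP1 by -1.42 ± 0.11 and -1.99 ± 0.11. TEFM, the elongation factor of mitochondrial transcription, had a change of -2.70 ± 0.089 and -1.66 ± 0.089. TFAM, which packages and transcribes the mitochondrial genome, rose at 100 nM, by 0.32 ± 0.095 in U2-OS and 0.65 ± 0.095 in SJSA-1. At 400 nM TFAM had a change of -0.010 (adjusted p = 0.928) and 0.066 (adjusted p = 0.544). The messages of NRF1, PPRC1, SP1 and TEFM fell in the arrays in which most subunit messages rose on the deposited scale. These genes were picked from the regulators that fell, and those that rose at 400 nM are not named. The most positive change among the 13 at 400 nM was 0.28 in U2-OS and 0.16 in SJSA-1. Changes of GABPA and YY1, also on the list, are not given here. Protein levels, respiration and mitochondrial transcripts were not measured.

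**Figure D5:**
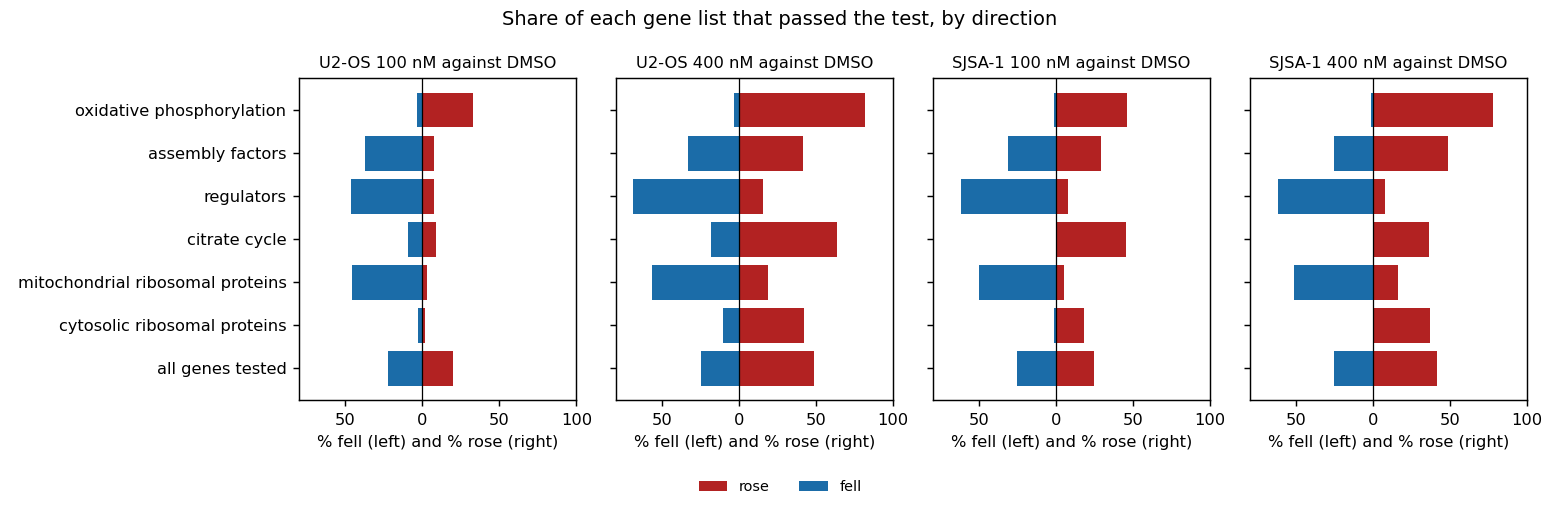
Percent of the tested genes of each list that rose (right) and fell (left) with THZ2 over DMSO, on the deposited scale, for the 2 higher doses in each line. The oxidative phosphorylation bar lies almost wholly to the right and those of the regulators and mitochondrial ribosomal proteins mostly to the left. On the spike-in scale the members' own split in SJSA-1 at 400 nM turns to none risen and 74 of 83 fallen, where 91.2% of all genes fell.

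Each member was also read by all of its probe sets. Of 192 probe sets 185 passed the filter. At 100 nM 53 rose and 5 fell in U2-OS and 86 rose and 4 fell in SJSA-1, and at 400 nM 139 rose and 10 fell in U2-OS and 137 rose and 2 fell in SJSA-1. The share of all probe sets that rose or fell in this fit is not given here. These counts therefore cannot be read against a background. Among the 50 genes with several probe sets UQCR11 was called in both directions at 100 nM in U2-OS, and ATP5F1A, ATP5MJ, COX6B2, NDUFC2 and UQCRC1 at 400 nM in U2-OS. In SJSA-1 no member was called in both directions at any dose.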

How the data were processed

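The authors deposited 1 intensity per probe set and array on a linear scale, for 24 arrays. MAS5 and RMA are named per the submitters' processing notes, without versions or a word on which made these values. Genes came from the platform annotation given for the array: of 49372 probe sets 79 were controls, 44988 named 1 gene, 1832 several and 2473 none, and those naming 1 gene were used. Every value column was used.

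From the deposited intensities log2(intensity + 16) was computed. A gene was its probe set with the highest mean, and a gene was left out if no group mean reached 12.7, the 30th percentile of the whole deposited table. limma 3.58.1 (R 4.3.3) estimated 8 group means and 9 contrasts over the 24 arrays together, by lmFit and eBayes with an intensity trend, leaving 16 residual degrees of freedom. p-values were adjusted by Benjamini-Hochberg over 16175 genes within a contrast, and 0.05 was the threshold. With 3 arrays on each side, the smallest two-sided p of an exact permutation test is 0.1. The fit was tested on simulated data. Where a group mean lay under the filter intensity, the bound on a ratio set each dim array to at least that intensity.

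Members and lists were chosen with earlier results of these data known. Members named by rule are fixed subunits, the 2 largest rises and falls per complex and dose, the 3 largest line differences each way, and genes whose probe sets disagree. UQCRH and the genes named from the comparison lists follow no such rule and are outside the 53 named changes. Promoters are those of the 2 largest rises after UQCRB, which is not shown, and the 2 lowest changes in SJSA-1 at 400 nM. Alternatives were other scalings, filters, pseudocounts, probe set rules, arrays fitted, the replicate block and leaving out each array. Leaving out arrays under spike-in scaling was added after the values were seen. Protein sequences were not used here. No depth applies to arrays, and their number limits the precision.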

Additional observations from a re-analysis of the deposited data

Results flagged for a closer look

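These results are listed because the test of the difference between the lines itself passed. At 100 nM 3 of 83 members differed between SJSA-1 and U2-OS, where 16.9% of all genes did. At 400 nM 31 of 83 differed, where 45.9% of all genes did. At 100 nM the effect in SJSA-1 minus that in U2-OS was 0.48 for NDUFA5, 0.41 for SDHD and 0.37 for NDUFS4. Over the 12 fits that each left out 1 array these did not pass in 3, 9 and 4. At 400 nM the difference was 0.80 for SDHD, 0.47 for UQCRHL and 0.46 for COX7A2L. On the spike-in scale those of UQCRHL and COX7A2L turned to -0.16 and -0.17. It was -0.87 for NDUFA3, -0.62 for NDUFA13 and -0.53 for NDUFS8 on the deposited scale. That of NDUFS8 did not pass with the mean of its probe sets (-0.22, adjusted p = 0.0927). At 400 nM the line difference and the separate normalization of the U2-OS arrays cannot be told apart. Groups of 3 arrays are too small for the check on single outlying arrays.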

How the results depend on the processing

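On the spike-in scale 1 member passed in U2-OS and 1 in SJSA-1 at 100 nM, both falls, where 18.5% and 25.7% of all genes fell. At 400 nM 2 passed in U2-OS (1 rise, 1 fall), where 3.3% of all genes rose and 18.9% fell. In SJSA-1 at 400 nM 74 passed, all falls, where 91.2% of all genes fell. The cause was not tested. Without SJSA-1 DMSO replicates 1, 2 and 3 the 74 became 29, 70 and 76, where 62.4%, 86.9% and 94.3% of all genes fell. Without 400 nM replicates 1, 2 and 3 the 74 became 78, 37 and 83, where 93%, 62.4% and 99.3% fell. All were falls, and this alternative was chosen after seeing the data. For the line difference at 100 nM 5 members passed after median centring, where 8.45% of all genes were higher and 8.62% lower in SJSA-1. On the spike-in scale 0 passed (0.0742% and 0.291% of all genes). After joint quantile normalization 7 passed (3 higher and 4 lower in SJSA-1, against 7.81% and 10.2% of all genes). At 400 nM 20 passed after median centring (12 and 8, against 25% and 20.2%). With only the U2-OS arrays fitted 62 members passed at 100 nM (57 rises, 5 falls, against 29.8% and 26.6% of all genes). At 400 nM that fit gave 71 rises and 3 falls (52.7% and 27.3%). With only the SJSA-1 arrays fitted there were 27 rises and 1 fall at 100 nM (18.7% and 26.7%). At 400 nM the SJSA-1 fit gave 55 rises and 1 fall (37.2% and 27.1%). Without 1 array the number that passed was 20 to 31 in U2-OS and 30 to 48 in SJSA-1 at 100 nM, 68 to 69 and 54 to 69 at 400 nM, 0 at 25 nM in either line and in the line difference, and 0 to 6 and 26 to 37 for the line differences at 100 and 400 nM. The 0 at 100 nM came without SJSA-1 DMSO replicate 2 and the 6 without SJSA-1 DMSO replicate 1. The shares of all genes in the fits without 1 array are not given here, so these ranges cannot be read against a background.

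Of 53 named changes 26 turned on the spike-in scale and 19 more no longer passed. At 100 nM in U2-OS they turned to -0.16 for ATP5F1B, -0.14 for ATP5PD, -0.13 for COX4I2, -0.17 for COX6B2, -0.15 for UQCR11 and -0.14 for UQCRC1. At 100 nM in SJSA-1 they turned to -0.19 for ATP5ME, -0.14 for ATP5PD, -0.19 for COX5B, -0.21 for COX6A2, -0.16 for SDHC, -0.11 for SDHD, -0.094 for UQCRB and -0.13 for UQCRHL. At 400 nM in SJSA-1 they turned to -0.36 for ATP5ME, -0.52 for ATP5PD, -0.51 for COX5B, -0.55 for COX7B, -0.33 for NDUFA5, -0.42 for NDUFB2, -0.50 for SDHC, -0.67 for SDHD, -0.25 for UQCRB and -0.46 for UQCRHL. The line differences at 400 nM turned to -0.17 for COX7A2L and -0.16 for UQCRHL. With the mean of probe sets UQCR11 turned to -0.31 at 100 nM in U2-OS, and 4 changes no longer passed: the line differences of NDUFS8 (-0.22) and NDUFS4 (0.18), SDHA in SJSA-1 (-0.13) and UQCRC1 in U2-OS (0.20) at 100 nM. Ribosomal centring also cost 4 calls: COX6A2 in SJSA-1 at 100 nM (0.18), SDHD in SJSA-1 at 400 nM (0.18), the SDHD line difference at 100 nM (0.38) and UQCRC1 in U2-OS at 100 nM (0.20). Median centring, no filter and the pseudocounts of 1 and 64 left all 53 on their side of the threshold, and joint quantile normalization all but 1.

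Whether the replicate numbers of the labels pair arrays across groups was not tested. Of 18 pairs with the same number in each line, deviations from the group means correlated above 0.1 in 9 in U2-OS and 8 in SJSA-1. In U2-OS the median r was 0.122 for these pairs and -0.0741 for the 36 pairs with different numbers. In SJSA-1 the medians were 0.0659 and 0.0247. With the replicate number as a block all 53 named changes kept their direction and side of the threshold.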

Other observations

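Members with and without a motif in the promoter window were set side by side, without a test. In U2-OS at 400 nM the median change was 0.29 for the 16 members with the NRF1 core and 0.43 for the 51 without it, and in SJSA-1 at 400 nM it was 0.23 and 0.26. For the YY1 core the medians in SJSA-1 at 400 nM were 0.30 in 15 members with it and 0.26 in 52 without it. NRF1 cores were found in both complex II promoters matched and in 3 of 6 of complex III, 6 of 32 of complex I, 1 of 14 of complex IV and 4 of 14 of complex V.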
